A study of Mus musculus with 4 samples.

Results

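The levels of 8 genes, Pdzd2, Ccnd3, Dpysl5, Card14, Cdh24, Carmil2, Matk and Kifc2, of 56748 listed genes, were followed through single-nuclei RNA-seq of the mouse hippocampus after repeated social defeat (RSD, here stress). The genes were chosen by their level in stress and control pools, in unique transcripts (UMIs) per 1000000 UMIs of a class of nuclei (CPM). That level was higher in stress in all 4 pairs of pools, in dentate gyrus (DG) granule neurons or in CA2/3 pyramidal neurons. Many other genes met the same rule. It took 1338 of the 12320 genes tested in DG-like nuclei (10.9%) and 1547 of the 11512 tested in CA2/3-like nuclei (13.4%). The stress values of both classes chose the genes. They are therefore given as a description, with no test.

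The study compared stress with control in mice that had microglia or lacked them, and in mice with or without the interleukin-1 receptor IL-1R1 in glutamatergic neurons. Each pool held the hippocampi of 3 male mice, taken 14 h after the last defeat. Stress consisted of 6 nights with 2 h of exposure to an aggressive CD-1 male, which control mice did not meet. The Control-Vehicle and Stress-Vehicle pools came from wild-type C57BL/6 mice bought at 5 to 7 weeks of age and fed standard chow. The Control-PLX5622 and Stress-PLX5622 pools came from the same strain, fed the CSF1R antagonist PLX5622 for 7 days before defeat to deplete microglia. Con-IL-1R1+/+ and Stress-IL-1R1+/+ mice lacked Cre. In Con-nIL-1R1-/- and Stress-nIL-1R1-/- mice, Cre under Vglut2 was used to remove Il1r1 from neurons that the study calls Vglut2+. No diet is named for the IL-1R1 mice, and their age is not given in the sources used here. A pair is the stress and the control pool of 1 diet or genotype. Each group was 1 pool with no repeat, so the 4 pairs, which differ in diet or genotype, served as the replicates. The p-values measure a spread that mixes differences between pools of mice with differences of the stress effect between pairs.

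Granule neurons of the DG receive the cortical input to the hippocampus and excite CA3 neurons, which in turn excite CA1 neurons. This chain is known for its part in contextual memory, and the DG is also known as a site of Il1r1 expression. The 8 genes belong to different families. Kifc2 is a C-terminal motor kinesin. Carmil2 binds the capping protein of actin filaments, and Dpysl5 (CRMP5) is a collapsin response mediator protein of growing axons and dendrites. Cdh24 is a type II cadherin, a calcium-dependent adhesion protein. Pdzd2 is a scaffold with many PDZ domains. Matk is a kinase related to Csk that phosphorylates the inhibitory tyrosine of Src family kinases. Card14 is a scaffold that couples BCL10 and MALT1 to NF-kB and is best known in skin. Ccnd3 is a D-type cyclin, a partner of the kinases that phosphorylate the retinoblastoma protein.

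All 8 genes are protein coding. On mm39 (GRCm39, GENCODE vM39), Pdzd2 spans chr15:12359797-12740193 on the minus strand and Kifc2 chr15:76543981-76552402 on the plus strand. Ccnd3 spans chr17:47815767-47910624 (plus), Dpysl5 chr5:30868908-30956719 (plus) and Card14 chr11:119198591-119236206 (plus). Cdh24 spans chr14:54868688-54878831 (minus), Carmil2 chr8:106412351-106424844 (plus) and Matk chr10:81088301-81102355 (plus). Kifc2, Cdh24, Carmil2 and Matk are short, at 8422, 10144, 12494 and 14055 bp. Between 10.8% (Kifc2) and 21.3% (Matk) of the genes tested in DG-like nuclei were shorter. Pdzd2 is long, at 380397 bp, and 96.6% of tested genes were shorter. A protein-coding gene overlaps the opposite strand of 5 of the 8, namely Kifc2 (Foxh1, Tmem276 and Gm57852), Matk (Mrpl54), Carmil2 (Acd), Card14 (Sgsh) and Ccnd3 (Bysl). Whether counting used strand is not given in the sources used here.

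Promoter sequences of 5 of the 8 genes were in the RefSeq table used here (GRCm38.p6, a different build from that of the counts), as 7 windows of 300 bases from 250 before to 50 after a transcription start. The windows of Pdzd2, Ccnd3 and Cdh24 are shown because each held more than 1 GC box. The Dpysl5 window, which is not shown, held 1 and the 2 Matk windows held 0. Capitals mark the GC box GGGCGG and the core TGACG of the cAMP response element, on either strand. The windows are chr15:12739843-12740142 (minus), chr17:47504801-47505100 and chr17:47593217-47593516 (both plus, from separate starts of Ccnd3), and chr14:54641315-54641614 (minus).
Pdzd2: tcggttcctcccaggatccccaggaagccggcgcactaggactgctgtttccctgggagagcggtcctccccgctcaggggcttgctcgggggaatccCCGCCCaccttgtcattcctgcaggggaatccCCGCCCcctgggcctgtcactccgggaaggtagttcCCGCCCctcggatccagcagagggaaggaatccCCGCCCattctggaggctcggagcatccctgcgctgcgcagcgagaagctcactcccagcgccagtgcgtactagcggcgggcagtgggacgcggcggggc
Ccnd3 upstream start: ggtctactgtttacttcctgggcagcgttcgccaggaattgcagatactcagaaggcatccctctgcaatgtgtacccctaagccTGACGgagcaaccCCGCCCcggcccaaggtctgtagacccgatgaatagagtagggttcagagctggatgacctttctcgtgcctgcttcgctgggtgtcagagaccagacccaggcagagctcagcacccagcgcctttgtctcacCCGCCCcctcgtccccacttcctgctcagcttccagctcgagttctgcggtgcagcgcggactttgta
Ccnd3 downstream start: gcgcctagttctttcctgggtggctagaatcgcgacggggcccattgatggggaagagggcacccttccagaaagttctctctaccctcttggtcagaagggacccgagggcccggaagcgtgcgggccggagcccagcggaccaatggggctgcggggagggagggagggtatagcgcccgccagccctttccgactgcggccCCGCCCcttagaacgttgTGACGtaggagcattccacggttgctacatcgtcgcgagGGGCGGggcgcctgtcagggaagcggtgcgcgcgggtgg
Cdh24: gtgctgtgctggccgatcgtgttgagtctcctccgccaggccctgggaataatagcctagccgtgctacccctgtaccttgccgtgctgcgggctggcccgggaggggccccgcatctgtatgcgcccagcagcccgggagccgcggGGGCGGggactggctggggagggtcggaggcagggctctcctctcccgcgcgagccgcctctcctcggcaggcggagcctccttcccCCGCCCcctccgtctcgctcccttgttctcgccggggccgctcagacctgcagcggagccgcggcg

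The Pdzd2 window held 4 GC boxes, and each of the other shown windows held 2. A GC box was in 5 of the 7 windows, against 35.7% of the 32851 promoters of the table. The 7 windows were rich in G and C, from 59.0% (above 68.1% of promoters) to 73.3% (above 94.5%). The TGACG core was in 2 of the 7, both of Ccnd3, against 20.8% of all promoters. None of the 7 windows held the full cAMP response element TGACGTCA (1.79% of all promoters), the EGR site GCGTGGGCG (0.612%), the AP-1 site TGANTCA (7.81%), an NF-kB site (1.63%), the E-box CACGTG (7.15%) or the TATA box TATAAA (13.6%). These are matches of letters only, on both strands.

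After nuclei with over 20% mitochondrial UMIs were left out, 56834 of 57350 nuclei remained, and 15350 of them stayed unnamed. No barcode was shared between pools. Depth was uneven. Median UMIs per nucleus were 598 and 628 in the PLX5622 pools and between 1325.5 and 5012 in the other pools. Stress-PLX5622 lost 189 nuclei to the mitochondrial limit, more than any other pool. Microglia-like nuclei numbered 0 in both PLX5622 pools and 19 to 50 in each of the other pools. Stress-IL-1R1+/+ held 237 medium spiny-like nuclei against 1 to 11 elsewhere, and Slc17a6 excitatory-like nuclei ranged from 21 to 1327 per pool. Clusters were named from marker genes, and in the DG-like class 6 of 7 markers were at their highest (CA2/3-like, 5 of 7). Il1r1 in DG-like nuclei was at 10.7 CPM in Con-nIL-1R1-/- and 8.35 in Stress-nIL-1R1-/-, below Con-IL-1R1+/+ (59.1) and Stress-IL-1R1+/+ (28.4), and at 52.0 to 86.5 in the diet pools.

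In DG-like nuclei all 8 genes were higher in stress in all 4 pairs, which the choice fixes (background, 10.9%). The genes differed in how large and how even the increase was. Card14, the NF-kB scaffold, had the highest value for its smallest pair difference of all 1338 genes that met the rule. Ccnd3 was number 7 on that measure, Pdzd2 number 21, Dpysl5 number 37, Cdh24 number 41, Matk number 89, Kifc2 number 256 and Carmil2 number 374. In 4 of the 8 genes (Pdzd2, Dpysl5, Card14 and Carmil2) every stress pool was also above every control pool. This held for 224 of the 12320 genes tested (1.82%), all of them among the 1338 that met the rule.

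Of the signalling genes, Card14 was at 3.72 CPM in Control-Vehicle, 2.31 in Control-PLX5622, 2.70 in Con-IL-1R1+/+ and 1.55 in Con-nIL-1R1-/-. Among the stress pools, Stress-nIL-1R1-/- had 6.49 CPM, Stress-IL-1R1+/+ 7.73, Stress-Vehicle 9.40 and Stress-PLX5622 23.8. The groups did not overlap, and Stress-PLX5622 stood above the other stress pools. These levels rest on few molecules, 2 to 20 UMIs per control pool and 21 to 28 per stress pool. The fitted log2 difference, stress minus control, was 1.79 ± 0.30 (SE of the fit over 8 pools). Matk, the Csk-related kinase, was at 113.5, 146.4, 72.9 and 72.3 CPM in the control pools, in the same order, and at 162.5, 214.2, 96.4 and 90.6 in the stress pools. Both diet pairs were higher than both IL-1R1 pairs, so the stress and control ranges overlapped although each pair rose. The Matk difference was 0.42 ± 0.10.

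Ccnd3, the D-type cyclin, was at 15.4 CPM in Control-Vehicle, 17.3 in Control-PLX5622, 9.22 in Con-IL-1R1+/+ and 4.64 in Con-nIL-1R1-/-. Its stress levels were 25.5, 46.7, 16.0 and 14.2 CPM. The lowest stress pools lay within the control range, and Stress-PLX5622 was the highest. The difference was 1.05 ± 0.19 (SE). Pdzd2, the PDZ scaffold, was the best measured of the genes, with 419 to 3436 UMIs per pool. Its control levels were 638.5, 483, 576.3 and 433.7 CPM and its stress levels 942.5, 848.9, 815.5 and 758. No control pool reached the lowest stress pool, and the difference was 0.64 ± 0.10. Within pairs the Pdzd2 log2 difference ran from 0.50 (95% Poisson interval 0.42 to 0.58) in IL-1R1+/+ to 0.81 (0.65 to 0.98) in PLX5622. Such intervals cover counting error only.

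Among the cytoskeletal genes, Dpysl5 was at 47.8, 38.0, 40.7 and 30.9 CPM in the control pools and 64.2, 51.1, 66.8 and 64.9 in the stress pools. The groups did not overlap, with Stress-PLX5622 the lowest of the stress pools, and the difference was 0.69 ± 0.14. Kifc2, the kinesin, was at 91.8, 83.0, 51.5 and 47.7 CPM in the control pools and 105.7, 112.8, 79.0 and 70.2 in the stress pools. Its stress and control ranges overlapped, and its difference was 0.43 ± 0.12. Carmil2, the capping protein regulator, was at 10.4, 11.5, 7.20 and 11.2 CPM in the control pools and 21.5, 17.6, 12.2 and 12.7 in the stress pools. These ranges did not overlap, but by a margin smaller than the counting error of single pools. The Carmil2 difference was 0.64 ± 0.20. For the cadherin Cdh24, the control levels were 6.50, 10.4, 5.62 and 5.16 CPM and the stress levels 16.5, 18.5, 10.2 and 7.11. The highest control pool, Control-PLX5622, lay above the 2 lowest stress pools. The Cdh24 difference was 0.88 ± 0.23.

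**Figure D1:**
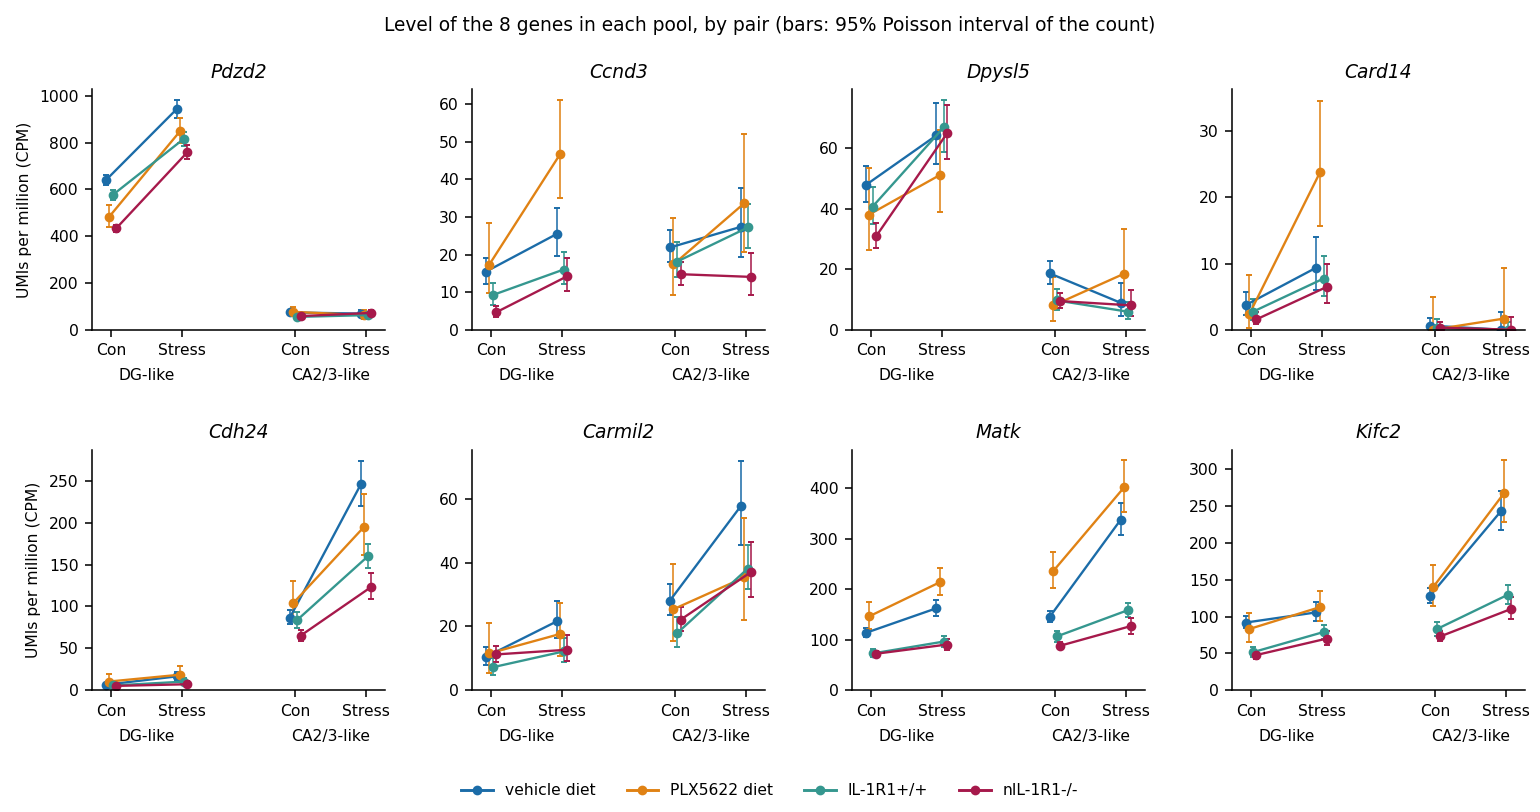
Each panel shows 1 gene, with its level in CPM on the y axis and the control and stress pools of DG-like and CA2/3-like nuclei on the x axis; lines join the pools of a pair and bars are 95% Poisson intervals of the count. All 4 lines rise in DG-like nuclei for each gene, and in CA2/3-like nuclei for Cdh24, Carmil2, Matk and Kifc2.

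In CA2/3-like nuclei 4 of the 8 genes (Cdh24, Carmil2, Matk and Kifc2) were higher in stress in all 4 pairs (background, 13.4%). Cdh24 was at 86.7, 104.2, 83.6 and 65.0 CPM in Control-Vehicle, Control-PLX5622, Con-IL-1R1+/+ and Con-nIL-1R1-/-. After stress it was at 245.6, 195.3, 159.8 and 123.4 CPM in the matched pools. The groups did not overlap, and the fitted difference was 1.06 ± 0.15 (SE of the fit over 8 pools). Cdh24 was number 2 of the 1547 genes by its smallest pair difference. Carmil2 was at 28.1, 25.4, 17.8 and 22.1 CPM in control and 57.7, 35.4, 38.2 and 37.1 in stress. These groups did not overlap either, and the difference was 0.89 ± 0.17. Such a lack of overlap held for 269 of the 11512 genes tested (2.34%), all of them among the 1547 that met the rule.

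Matk was at 145.8, 236.5, 106.7 and 88.3 CPM in the control pools of CA2/3-like nuclei and 338, 402.5, 158.6 and 127.4 in the stress pools. Kifc2 was at 128, 140.3, 83.0 and 73.1 CPM in control and 242.6, 267.8, 129.5 and 110.4 in stress. For both genes the diet pairs stood above the IL-1R1 pairs, so the ranges overlapped. Both had a difference of 0.75, with an SE of 0.15 for Matk and 0.13 for Kifc2. The other 4 genes did not rise in every pair. Ccnd3 rose in 3 of 4 pairs and was at 14.8 CPM in Con-nIL-1R1-/- and 14.1 in Stress-nIL-1R1-/-, with a difference of 0.38 ± 0.20. Pdzd2 was higher in 2 of 4 pairs, with 54.7 to 76.2 CPM over all pools and a difference of 0.05 ± 0.15. Dpysl5 was higher in 1 pair, with 5.94 to 18.6 CPM and a difference of -0.43 ± 0.29. Card14 had 0 to 3 UMIs per pool, too few to compare.

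At the edge of the rule, Carmil2 in DG-like nuclei was just inside. Its log2 difference in the nIL-1R1-/- pair was 0.18 (95% Poisson interval -0.40 to 0.73). Kifc2 in DG-like nuclei was also close, with 0.20 (-0.02 to 0.42) in the vehicle pair. Ccnd3 in CA2/3-like nuclei was just outside, with -0.07 (-0.73 to 0.55) in the nIL-1R1-/- pair. The same count of 8 genes in DG-like and 4 in CA2/3-like nuclei was found in the largest cluster of each class alone, a comparison chosen after the data were seen. Every sublibrary holds nuclei of all pools, which gave 16 comparisons of stress with control within a pair and a sublibrary. In DG-like nuclei, Card14, Ccnd3 and Pdzd2 were higher in stress in 16 of 16, Dpysl5 and Matk in 15, Kifc2 in 14, and Cdh24 and Carmil2 in 13. In CA2/3-like nuclei, Cdh24, Kifc2 and Matk were higher in 16 of 16 and Carmil2 in 14. There Ccnd3 was higher in 11, Pdzd2 in 6, Dpysl5 in 5 and Card14, with too few UMIs to compare, in 1. The sublibraries are repeat samplings of the same pools, not further mice. They split the UMIs that chose the genes, so these counts describe the increases and do not test them.

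Nuclei were next thinned to 500 UMIs each, so that all pools had 1 depth and shallower nuclei were left out. In DG-like nuclei 5 of the 8 genes (Pdzd2, Ccnd3, Card14, Matk and Kifc2) were then still higher in stress in every pair (background after thinning, 8.6%). Pdzd2 was at 668.6, 475.4, 584.4 and 473.7 CPM in the thinned control pools and 919, 861.9, 871.3 and 775.8 in the thinned stress pools, again without overlap. Thinned Card14 was at 1.33 to 5.89 CPM in control, from 1 to 5 UMIs per pool, and 9.52 to 26.2 in stress, from 5 to 11 UMIs. Dpysl5 fell out with a log2 difference of -0.10 in the PLX5622 pair. Cdh24 fell out in the vehicle pair (-0.89) and Carmil2 in both IL-1R1 pairs (-0.40 and -0.52). Thinned Cdh24 and Carmil2 had 1 to 15 UMIs per pool. Counts this low, like those of thinned Card14, do not settle whether a pair difference was kept or lost. In CA2/3-like nuclei the same 4 genes as before thinning were higher in every pair (background after thinning, 9.1%). Thinned Cdh24 was at 97.2, 98.8, 98.4 and 88.3 CPM in control and 217.2, 194.2, 140 and 159.1 in stress.

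**Figure D2:**
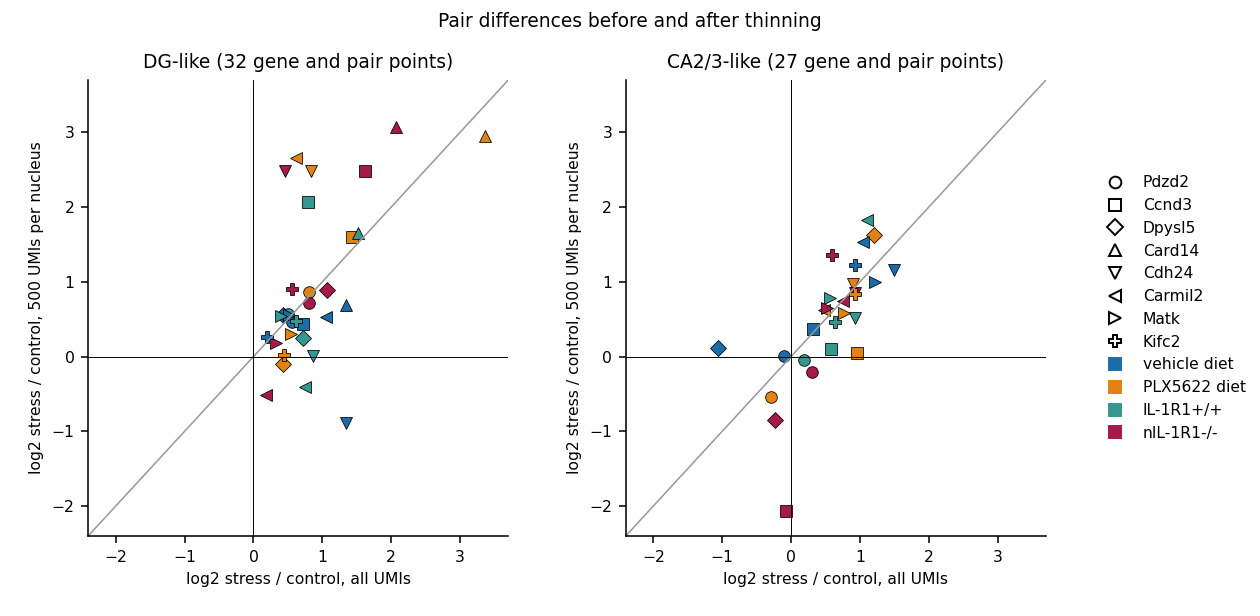
The log2 ratio of stress to control of each gene and pair is plotted with all UMIs (x axis) and with each nucleus thinned to 500 UMIs (y axis), in DG-like (left) and CA2/3-like nuclei (right); symbols are genes and colours are pairs, and points with no UMI in a pool are not drawn. Every DG-like point is to the right of 0, and 4 of them fall under 0 after thinning: Cdh24 in the vehicle pair, Dpysl5 in the PLX5622 pair and Carmil2 in both IL-1R1 pairs.

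Other measures moved with stress in the same nuclei. The share of UMIs from genes under 20 kb was higher in stress in all 4 pairs, in DG-like nuclei (8.08 to 10.2% in control and 8.25 to 13.5% in stress) and in CA2/3-like nuclei (9.03 to 10.95% and 10.2 to 17.1%). Genes under 10 kb had a median log2 difference of 0.11 in DG-like and 0.22 in CA2/3-like nuclei, and genes over 100 kb of -0.06 and -0.12. Kifc2 falls in the shortest of these bins and Cdh24, Carmil2 and Matk in that of 10 to 30 kb, with medians of 0.05 and 0.09. Pdzd2, at over 100 kb, rose in DG-like nuclei against a lower median for its length. The mitochondrial share was higher in stress in 3 of 4 pairs of both classes, and median UMIs in 2 of 4. Clusters also differed between pools. In DG-like nuclei 1 cluster held 7.01% of the Control-Vehicle and 36.5% of the Stress-Vehicle nuclei. In CA2/3-like nuclei 1 cluster held 16.1% and 58.5%. The part of these measures in the increases was not tested. The summed level of 7 microglia markers in DG-like nuclei was 22.1 to 27.7 CPM in control and 19.2 to 30.9 in stress.

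The 8 genes differed in the class of highest mean level, among the 9 classes with at least 20 nuclei in every pool. These means take in the stress pools of DG-like and CA2/3-like nuclei, whose values chose the genes. Pdzd2 was highest in DG-like nuclei (687 ± 183 CPM, SD, n = 8 pools), above oligodendrocyte precursor (OPC)-like nuclei (298.6 ± 79.7) in all 8 pools, although the ranges touched. Card14 was also highest in DG-like nuclei (7.21 ± 7.27 CPM) and averaged 2.29 or less in each of the other 8, of which OPC-like nuclei came next and were lower in 8 of 8 pools. In the control pools alone, Card14 averaged 2.57 CPM in DG-like, 0.72 in OPC-like and 1.67 in astrocyte-like nuclei. Dpysl5 was highest in inhibitory (INH)-like nuclei (129.9 ± 22.2), followed by Slc17a6 excitatory-like nuclei (98.2 ± 28.1) and other excitatory-like nuclei (89.5 ± 14.8). The ranges of these neighbours overlapped, but every pool of other excitatory-like nuclei was above every pool of DG-like nuclei (50.6 ± 13.7). CA2/3-like nuclei were the lowest for Dpysl5 (10.9 ± 4.87).

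Cdh24, Carmil2, Matk and Kifc2 had their highest mean over the 8 pools in CA2/3-like nuclei. Only for Cdh24 did that class stand clear of the next, with 133 ± 62.6 CPM against 32.1 ± 13.9 in CA1-like nuclei and no overlap of the ranges. With control pools alone, Cdh24 averaged 84.9 CPM in CA2/3-like and 21.6 in CA1-like nuclei. Matk was at 200.5 ± 114.9 in CA2/3-like, 137.2 ± 81.4 in CA1-like and 121.1 ± 49.8 in DG-like nuclei, and 9.24 ± 8.21 in oligodendrocyte-like nuclei. Kifc2 was at 146.8 ± 71.1 in CA2/3-like and 130.1 ± 36.5 in INH-like nuclei, which overlapped, and 44.3 ± 25.8 in oligodendrocyte-like nuclei. With control pools alone, the Kifc2 mean was not highest in CA2/3-like nuclei. In Control-Vehicle, Control-PLX5622, Con-IL-1R1+/+ and Con-nIL-1R1-/- it was at 128, 140.3, 83.0 and 73.1 CPM there. INH-like nuclei of these pools had 136.1, 122.5, 96.4 and 85.3 CPM. Carmil2 was at 32.7 ± 12.5 in CA2/3-like and 27.2 ± 13.8 in CA1-like nuclei, which also overlapped. Ccnd3 followed another order. Its level was highest in astrocyte-like nuclei (143.3 ± 95.9), then oligodendrocyte-like nuclei (87.7 ± 17.8), which did not overlap with CA2/3-like nuclei (21.8 ± 7.01). DG-like (18.6 ± 12.9) and other excitatory-like nuclei (8.31 ± 4.11) were lower. In the control pools alone, Ccnd3 averaged 75.2 CPM in astrocyte-like and 78.4 in oligodendrocyte-like nuclei. Classes with under 20 nuclei in a pool stand outside this order, and some had higher levels. Pdzd2 was at 1194 to 3092 CPM in Cajal-Retzius-like nuclei (16 to 38 nuclei per pool), above every DG-like pool. Card14 reached 103.2 CPM in vascular leptomeningeal-like nuclei, on 0 to 7 UMIs per pool, and was at 0 in 4 of 8 pools. Ccnd3 in microglia-like nuclei is given with the astrocyte-like values.

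**Figure D3:**
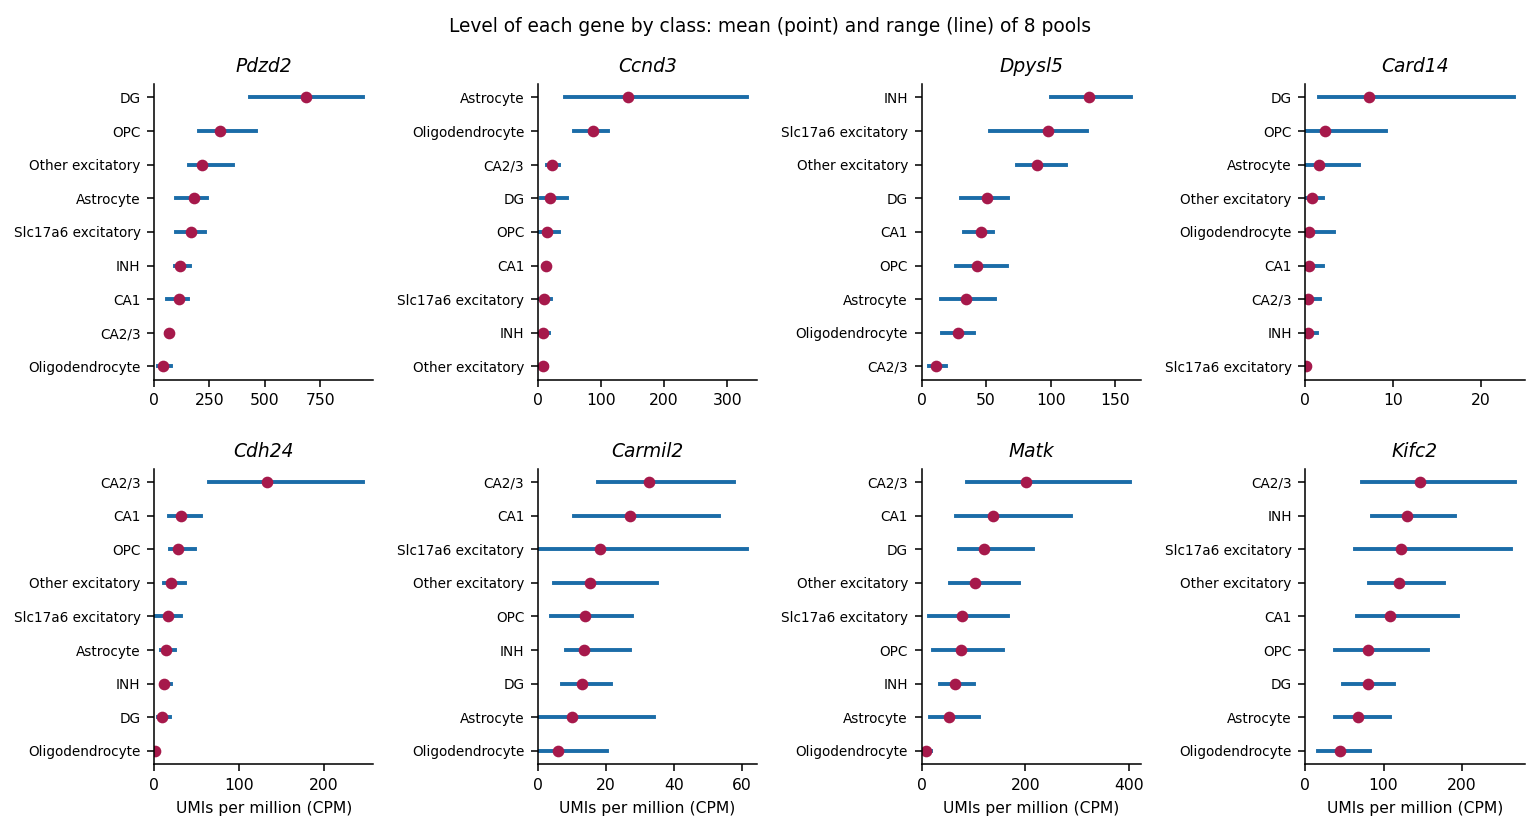
For each gene, the mean level over 8 pools (point) and the range (line) (CPM, x axis) are drawn for 9 classes, ordered by the mean. Pdzd2 and Card14 lead in DG-like nuclei, Cdh24, Carmil2, Matk and Kifc2 in CA2/3-like nuclei, Dpysl5 in INH-like nuclei and Ccnd3 in astrocyte-like nuclei. With control pools alone, Kifc2 does not lead in CA2/3-like nuclei, nor Ccnd3 in astrocyte-like nuclei.

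Classes outside the rule allowed a test of stress, although their nuclei came from the same pools of mice. In other excitatory-like nuclei 5 of 7 tested members were higher in every pair (background, 9.72%) and 3 passed the test with adjusted p under 0.05 (background of genes called higher, 0.604%). Cdh24 was at 11.5, 11.3, 12.6 and 11.98 CPM in Control-Vehicle, Control-PLX5622, Con-IL-1R1+/+ and Con-nIL-1R1-/-, and 34.2, 16.6, 36.5 and 24.6 in the matched stress pools. The groups did not overlap (background, 1.95%), and Cdh24 rose by 1.29 ± 0.21 on the log2 scale (edgeR quasi-likelihood test, adjusted p = 0.00678). Matk was at 92.1, 108.4, 57.1 and 54.9 CPM in control and 187.9, 151.8, 87.1 and 78.8 in stress, with ranges that overlapped. It rose by 0.67 ± 0.14 (edgeR, adjusted p = 0.0224). Pdzd2 was at 201.9, 168.2, 159.1 and 164.3 CPM in control and 357.7, 198.7, 248.1 and 224.7 in stress, with Stress-PLX5622 inside the control range. It rose by 0.56 ± 0.13 (edgeR, adjusted p = 0.0463). Carmil2 (0.88, adjusted p = 0.0905), Kifc2 (0.41, 0.134), Ccnd3 (0.44, 0.662) and Dpysl5 (0.08, 0.878) did not pass the edgeR test. After thinning, 2 of the 7 (Pdzd2 and Kifc2) were higher in every pair (background, 7.27%). Other measures of this class were also higher in stress in all 4 pairs. They were the mitochondrial share (0.103 to 0.1899% in control and 0.129 to 0.311% in stress), the share of UMIs from genes under 20 kb (7.66 to 9.68% and 7.82 to 12.02%) and the summed astrocyte markers (545 to 702.2 CPM and 547.8 to 781 CPM). Their part in the calls was not tested. In this class 4 of 7 markers were at their highest, the lowest share of the 9 classes.

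These calls depended on single pairs and on the processing. The Cdh24 call was lost without the vehicle pair (edgeR adjusted p = 0.0548) and without the IL-1R1+/+ pair (0.235). The Matk and Pdzd2 calls each held in 1 of the 4 fits that left out a pair, that without the PLX5622 pair, and were lost after thinning (edgeR adjusted p = 0.796 and 0.343). After thinning, and at a finer clustering (resolution 3 against 1.5), Cdh24 was no longer among the genes tested in this class. The Matk and Pdzd2 calls were also lost at the finer clustering and with no term for the pair. That of Pdzd2 was lost without the 5% of nuclei with most UMIs too. DESeq2 called Pdzd2 (background of genes called higher, 43 of 27244) and gave no adjusted p for Cdh24 and Matk.

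In CA1-like nuclei, the output neurons of the chain, 6 of 7 tested members were higher in every pair (background, 13.3%), all but Dpysl5. After thinning, 4 of 7 (Pdzd2, Cdh24, Matk and Kifc2) were higher in every pair (background, 9.02%). None passed the edgeR test after adjustment (background of genes called higher, 0.0251%), while 6 of 7 had an unadjusted p under 0.05 in the higher direction (background, 8.13%). Carmil2 was at 22.3, 22.5, 10.6 and 17.2 CPM in control and 53.2, 41.8, 25.8 and 23.9 in stress. The groups did not overlap (background, 2.29%), and the log2 difference was 0.95 (edgeR, adjusted p = 0.112). Cdh24 was at 23.0, 23.4, 21.8 and 18.2 CPM in control and 55.3, 50.8, 34.5 and 29.8 in stress, also without overlap, with a difference of 0.89 (edgeR, adjusted p = 0.103). The differences were 0.82 for Pdzd2 (edgeR, adjusted p = 0.153), 0.69 for Matk and 0.58 for Kifc2 (both 0.169), 0.47 for Ccnd3 (0.282) and 0.24 for Dpysl5 (0.601). Without the filter on low counts, 5 of these were called in CA1-like nuclei. That setting called 180 of 29079 genes higher there, against 3 of 11975 with the filter. DESeq2 called Matk (background of genes called higher, 29 of 29079) and gave no adjusted p for the other 6. The Pdzd2 difference was 0.23 at the finer clustering and 0.29 with high-mitochondrial nuclei kept. In CA1-like nuclei median UMIs were higher in stress in 0 of 4 pairs (547 to 4800 in control and 532 to 3133 in stress). The share of UMIs from genes under 20 kb was higher in all 4 (8.28 to 10.13% and 8.80 to 15.38%) and the mitochondrial share in 3. Their part in the CA1-like differences was not tested.

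In INH-like nuclei 2 of 7 tested members were higher in every pair (background, 9.08%) and none was called by the edgeR test (background of genes called higher, 0.102%). Dpysl5, in its class of highest level, was at 128.2, 109.1, 100.3 and 109.7 CPM in control and 144.5, 134.1, 162 and 151.3 in stress. The groups did not overlap (background, 1.6%), and the difference was 0.42 (edgeR, adjusted p = 0.141). Kifc2 was at 136.1, 122.5, 96.4 and 85.3 CPM in control and 191.5, 172.9, 128.2 and 107.8 in stress, with ranges that overlapped and a difference of 0.41 (edgeR, adjusted p = 0.116). After thinning, Kifc2 alone was higher in every pair (background, 6.83%). In Slc17a6 excitatory-like nuclei, 1 of 4 tested members, Matk, was higher in every pair (background, 7.53%), and none was called (background, 0.0%). In each of the 7 classes outside the rule, the median log2 difference of the tested members was above that of all genes. Examples are 0.69 against 0.00 in CA1-like, 0.56 against -0.01 in other excitatory-like and 0.32 against 0.00 in INH-like nuclei. These classes share the pools that chose the genes, so the medians are a description and no independent test. Genes under 10 kb also had medians above 0, at 0.18, 0.12 and 0.11 in the classes just named. In Slc17a6 excitatory-like nuclei the median was 0.20 for the members and 0.24 for genes under 10 kb. The part of gene length in these medians was not tested. Members with low counts passed the count filter only in some classes, and Card14 was tested in DG-like nuclei alone.

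**Figure D4:**
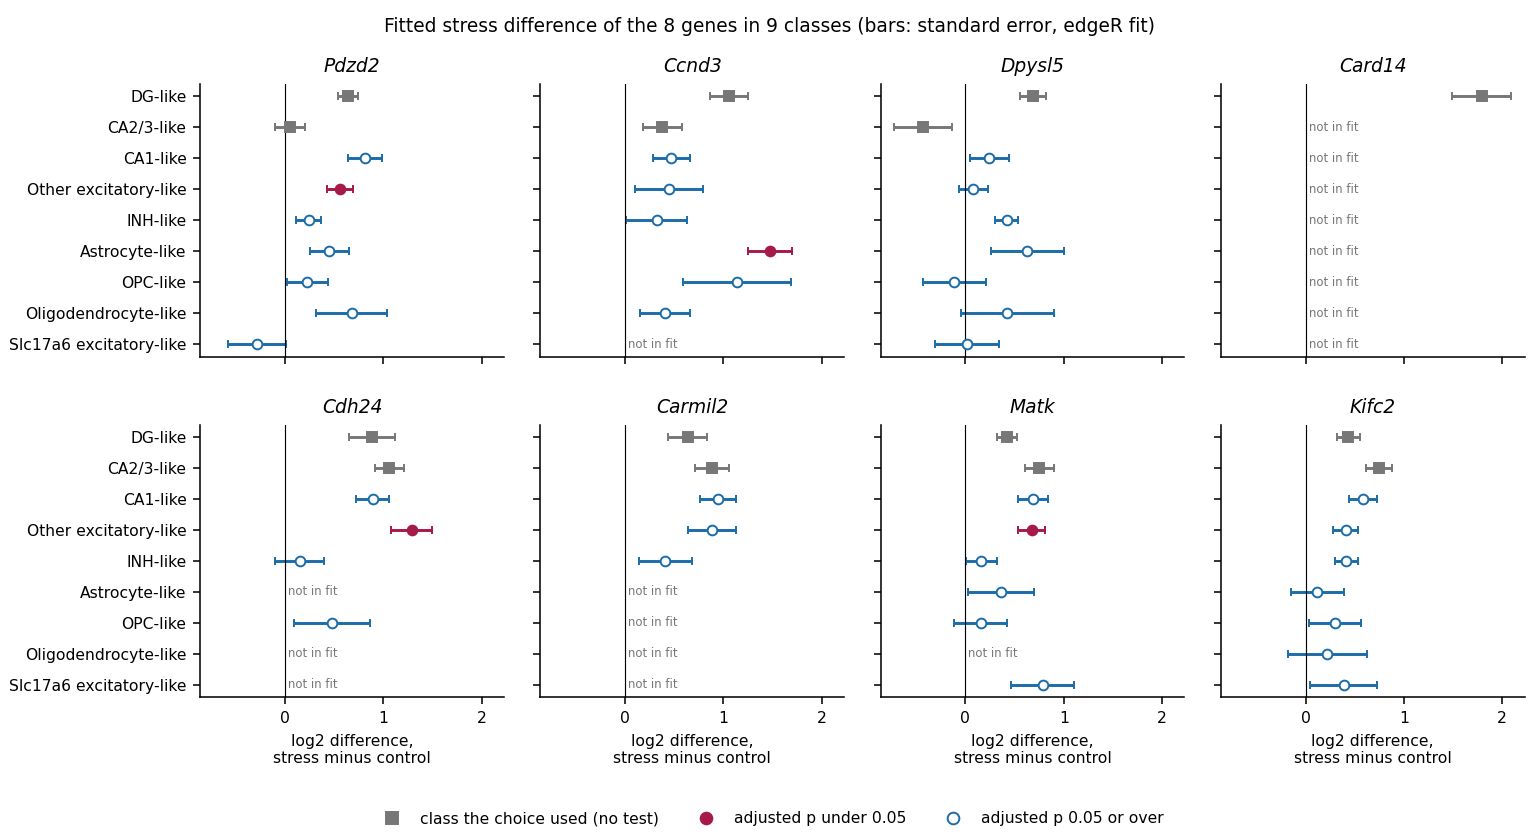
For each gene, the fitted log2 difference, stress minus control (x axis), is drawn with its standard error in 9 classes (y axis); grey squares are the classes that chose the genes, filled circles passed an adjusted p of 0.05 and open circles did not. Filled circles are Pdzd2, Cdh24 and Matk in other excitatory-like nuclei and Ccnd3 in astrocyte-like nuclei.

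Ccnd3 was the only member called in glia. In astrocyte-like nuclei it was at 114.9, 91.9, 51.2 and 42.7 CPM in Control-Vehicle, Control-PLX5622, Con-IL-1R1+/+ and Con-nIL-1R1-/-. After stress it was at 330.6, 212.3, 117.1 and 186 CPM. Every stress pool was above every control pool (background, 2.79%), and Ccnd3 rose by 1.47 ± 0.22 (edgeR, adjusted p = 0.000139; background of genes called higher, 0.217%). The call held without each pair in turn (edgeR adjusted p = 0.000366 to 0.0447). It was lost when nuclei were thinned (log2 0.78, edgeR adjusted p = 0.552), where the IL-1R1+/+ pair held 13 UMIs in control and 1 in stress and only 1118 genes could be tested. It was also lost at the finer clustering (log2 1.21, edgeR adjusted p = 0.101) and without the nuclei of highest UMI count (log2 1.45, 0.0665), and with no replicate block, the term for the pair (log2 1.48, 0.163). Of the 5 members tested in astrocyte-like nuclei, 3 (Pdzd2, Ccnd3 and Kifc2) were higher in every pair (background, 10.1%), and none after thinning (background, 7.09%). Kifc2 was higher by a log2 of only 0.007 in the vehicle pair and 0.004 in the IL-1R1+/+ pair. Its fitted difference of 0.12 became -0.05 without the nuclei of highest UMI count and -0.03 with high-mitochondrial nuclei kept.

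Microglia express Ccnd3 at a high level, and their markers were followed in the same nuclei. In microglia-like nuclei Ccnd3 was at 2128 CPM in Control-Vehicle, 638 in Con-IL-1R1+/+ and 340.1 in Con-nIL-1R1-/-. Among the stress pools, Stress-nIL-1R1-/- had 2029 CPM of Ccnd3, Stress-Vehicle 2930 and Stress-IL-1R1+/+ 2348. Each of the 3 pairs was higher in stress, by a log2 of 0.46 (95% Poisson interval 0.04 to 0.89) in the vehicle, 1.88 (1.43 to 2.35) in the IL-1R1+/+ and 2.58 (1.80 to 3.47) in the nIL-1R1-/- pair. Control-Vehicle stood near the stress level. Under 20 nuclei were in at least 1 pool, so no test was made. The summed level of 7 microglia markers in astrocyte-like nuclei was 12.6 to 41.0 CPM in control and 21.5 to 55.4 in stress, higher in 2 of 4 pairs, against 7272 to 9885 CPM in microglia-like nuclei. Tmem119, a defining marker, was at 0 in 7 of 8 astrocyte-like pools. In the PLX5622 pools, with 0 microglia-like nuclei, these markers summed to 30.6 CPM in control and 55.4 in stress in astrocyte-like nuclei. The part of microglial RNA in the Ccnd3 increase was not tested.

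In endothelial-like nuclei Ccnd3 was at 408.6 CPM in Control-Vehicle, 233.2 in Con-IL-1R1+/+ and 111.1 in Con-nIL-1R1-/-, and at 498.8, 255.7 and 305.8 in the matched stress pools. Stress-PLX5622 had 637.5 CPM, while Control-PLX5622 had 0 UMIs in 19 nuclei, which allows up to 193.8 CPM. These nuclei were too few for a test. In OPC-like nuclei Ccnd3 was higher in every pair, 1 of 6 tested members (background, 8.1%), on 0 to 14 UMIs per pool, and did not pass the test (log2 1.14 ± 0.55, edgeR adjusted p = 0.711; background of genes called higher, 0.0971%). In the same OPC-like nuclei the summed microglia markers (11.9 to 33.2 CPM in control and 18.5 to 56.7 in stress), the astrocyte markers (370.7 to 487.9 and 384.9 to 637.2) and the endothelial markers (11.9 to 28.4 and 18.5 to 28.9) were higher in stress in all 4 pairs, as was the mitochondrial share (0.111 to 0.273% and 0.161 to 1.28%). Their part in the OPC-like level was not tested. Oligodendrocyte-like nuclei had Ccnd3 at 57.6 to 89.0 CPM in control and 73.1 to 110.7 in stress, which overlapped (log2 0.41, edgeR adjusted p = 0.781). None of the 4 members tested there was higher in every pair (background, 8.96%) or called higher (background, 0.308%).

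**Figure D5:**
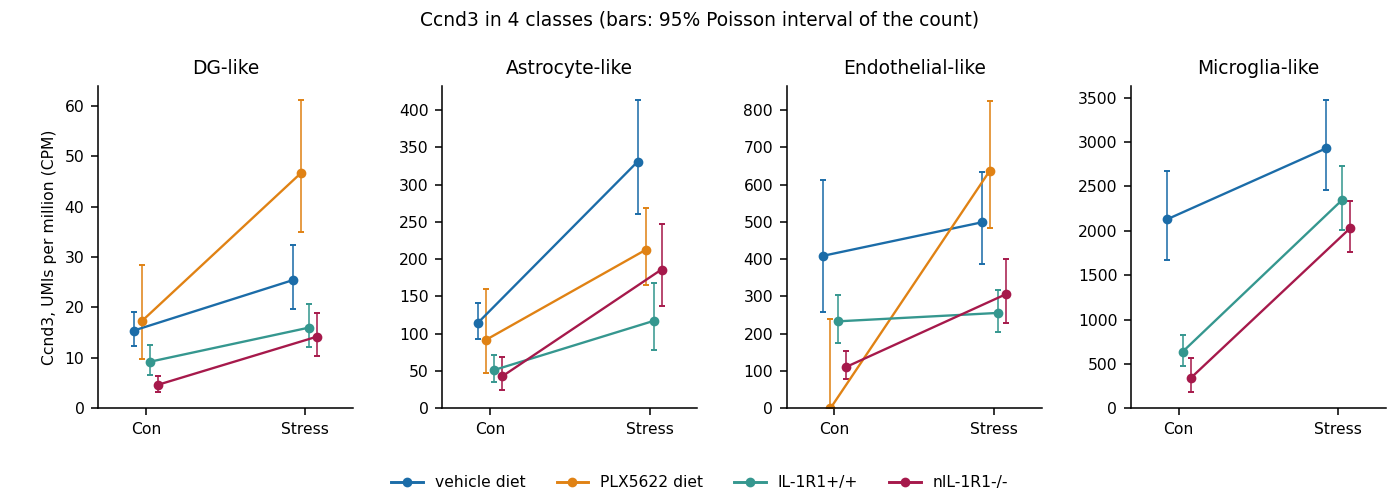
Ccnd3 level (CPM, y axis) is shown for the control and stress pools (x axis) of DG-like, astrocyte-like, endothelial-like and microglia-like nuclei, with separate scales; lines join a pair and bars are 95% Poisson intervals. All drawn pairs rise, from 42.7 to 114.9 CPM in control to 117.1 to 330.6 in stress in astrocyte-like nuclei, and the PLX5622 pair is absent from microglia-like nuclei.

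The choice did not compare levels between genotypes or between diets, so these could be tested for the same genes, over control and stress pools together. Such contrasts compare levels and do not test whether the stress difference depends on neuronal IL-1R1 or microglia. The choice itself bears on that question, since it took only genes that rose in the nIL-1R1-/- and PLX5622 pairs too. Loss of neuronal IL-1R1 called none of the 8 genes in any of the 9 classes (edgeR, 55 tests of a member in a class, lowest adjusted p = 0.813, 1 unadjusted p under 0.05), and PLX5622 called none either (edgeR, lowest adjusted p = 0.538, 6 unadjusted p under 0.05). The background over the 9 classes was 0.0601% of genes called for genotype and 0.038% for diet, with unadjusted p under 0.05 for 2.62% and 4.98% of genes. DESeq2 also called none for either contrast (background, 0.0215% and 0.0057% of all genes with a UMI). It gave 0 unadjusted p under 0.05 for genotype (background, 0.286%) and 3 for diet (0.767%). In DG-like nuclei Matk was 0.44 ± 0.15 higher in the PLX5622 pools (edgeR, adjusted p = 0.538), Ccnd3 was 0.62 ± 0.28 higher (0.718) and Card14 0.91 ± 0.43 higher (0.731). Among the 8 genes these were the 3 largest differences by diet in that class, with Cdh24 close behind (0.44, edgeR adjusted p = 0.891). Card14 was higher with PLX5622 only under stress, at 23.8 CPM in Stress-PLX5622 and 9.40 in Stress-Vehicle. Control-PLX5622 had 2.31 CPM, on 2 UMIs, and Control-Vehicle 3.72. The genotype differences there ran from -0.54 ± 0.27 for Ccnd3 to 0.40 ± 0.27 for Carmil2 (edgeR, adjusted p = 0.9997 for both). These contrasts rest on 2 pools against 2, and an adjusted p over the threshold does not show that the levels were alike.

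Relatives of the 8 genes, 54 in all, were read from the same fits. They were D cyclins and partners, CRMPs, type II cadherins, CARMIL and capping proteins, CARD scaffolds with BCL10 and MALT1, Csk and Src family kinases, C-terminal motor kinesins and PDZ proteins. The edgeR fit called none higher by stress in any class and 2 lower, both adhesion genes of the Cdh24 family in astrocyte-like nuclei. Cdh18 was at 127.4, 176, 266.5 and 105.4 CPM in the control pools and 81.6, 76.9, 84.8 and 77.5 in the stress pools, without overlap, and fell by 1.07 on the log2 scale (SE 0.24, edgeR adjusted p = 0.0182). Cdh11 was at 257.2, 206.7, 266.5 and 424 CPM in control and 184.6, 113.9, 181.7 and 201.5 in stress, also without overlap, and fell by 0.78 (SE 0.19, edgeR adjusted p = 0.0342; background of genes called lower, 0.705%). Neither call was made by DESeq2, after thinning, at the finer clustering, without the nuclei of highest UMI count, with no replicate block or without the vehicle, the PLX5622 or the IL-1R1+/+ pair. Of the 39 genes called lower in astrocyte-like nuclei, 35 were over 100 kb. The share of UMIs from genes under 20 kb was higher in stress in all 4 pairs there. It was 10.9 to 16.4% in control and 12.2 to 18.4% in stress. The part of gene length in the Cdh18 and Cdh11 calls was not tested. Which relatives were called changed with the setting. DESeq2 called 8 relatives in a class, 1 of them higher, all 8 in neurons. The higher one was Carmil3, of the Carmil2 family, in CA2/3-like nuclei (log2 0.82, DESeq2 adjusted p = 0.00761; edgeR 0.83, adjusted p = 0.0901). Carmil3 there was also called higher after thinning (log2 0.94, edgeR adjusted p = 0.0413), at the finer clustering and without the nuclei of highest UMI count. In DG-like nuclei 4 of 40 tested relatives were higher in every pair (background, 10.9%), and in CA2/3-like nuclei 6 of 37 (background, 13.4%). Both counts are near the background. Their median log2 difference was -0.03 and -0.04 there, against 0.67 and 0.75 for the members, whose median the choice raised.

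By profile over 9 classes and 8 pools (72 values of log2 of CPM + 1, 11166 genes compared), Matk was most like Lmtk3 (Pearson r = 0.92) and Fbxo41 (0.91), and Pdzd2 like Dgkh (0.89) and Nrg2 (0.84). Ccnd3 was most like Paqr8 (0.82), Dpysl5 like Cntn5 (0.82), Cdh24 like Col6a1 and Wscd2 (both 0.81), Kifc2 like Slc4a3 (0.81), Carmil2 like Agap3 (0.73) and Card14 like Dsp (0.70). Among the members, Cdh24 and Matk were the closest pair (0.67). The points share pools, depth and class makeup, so these values describe the likeness only.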

How the data were processed

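Nuclei were barcoded by split pooling (Parse Biosciences) in 4 sublibraries that each held all 8 pools. The authors aligned reads to mm39 with the Parse pipeline and deposited UMI counts per nucleus and gene; the annotation release is not given in the sources used here, and GENCODE vM39 held 56017 of the 56748 identifiers. The submitters' processing notes name Seurat 4.1.1. Nuclei with over 20% mitochondrial UMIs were left out here, as by the authors. Counts were scaled to 10000 per nucleus, and 2000 variable genes, 30 principal components, 20 neighbours and the Leiden algorithm (resolution 1.5, leidenalg 0.10.2) gave clusters, which were named from marker lists and called X-like. Limits for naming were set after the cluster tables were seen. No doublet caller was run. Total UMIs per pool ran from 7534594 to 58081835.

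UMIs were summed per pool and class. CPM is the sum of a gene over the class total. Classes with at least 20 nuclei in every pool were tested with edgeR 4.0.16 (TMM, filterByExpr, quasi-likelihood F test, terms for diet or genotype arm and stress), with Benjamini-Hochberg adjustment over all genes of a class. The SE of a fitted difference is the size of that difference divided by the square root of its F statistic. It carries the spread of the fit and is not the SE of the 4 pair differences. Thinning drew 500 UMIs per nucleus without replacement. DESeq2 1.42.0, on all genes with a UMI, was an alternative. The fit was tested on simulated data with 200 changed genes. The study tested nuclei as replicates; pools were used here. The genes named are the 8 members, relatives that passed the test and the genes of most similar profile. The members, gene lists and tests were chosen with earlier results of these data known.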

Additional observations from a re-analysis of the deposited data

Results flagged for a closer look

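Of 110 groups of 4 control or 4 stress pools of a gene in a class, 10 held 1 pool far from the other 3 by Dixon's test; chance sets apart about 1 in 20. In DG-like nuclei, Stress-PLX5622 was high for Card14 (23.8 CPM, next 9.40) and low for Dpysl5 (51.1, next 64.2). In CA2/3-like nuclei, Stress-Vehicle was high for Carmil2 (57.7, next 38.2) and Control-Vehicle for Dpysl5 (18.6, next 9.65). Dpysl5 was low in Stress-PLX5622 in CA1-like nuclei (32.9, next 52.2). Ccnd3 was high in Con-IL-1R1+/+ in other excitatory-like nuclei (10.6, next 4.97). Cdh24 was high in Stress-Vehicle in INH-like nuclei (19.9, next 10.8) and in Control-PLX5622 in OPC-like nuclei (47.6, next 21.6). Matk was high in Stress-PLX5622 in Slc17a6 excitatory-like nuclei (166.8, next 85.3). Pdzd2 was low in Stress-nIL-1R1-/- in astrocyte-like nuclei (147.2, next 227.7). Stress-PLX5622, the pool in 4 of the 10, also lost the most nuclei to the mitochondrial limit (189).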

How the results depend on the processing

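With 4 pairs of pools and classes of uneven depth, the number of genes called by stress over 9 classes was sensitive to processing. It was 243, and 371 by DESeq2, 1056 without the filter on low counts, 161 after thinning to 500 UMIs, 100 at the finer clustering, 24 with no replicate block (no term for the pair) and 62 to 487 when 1 pair was left out. Member calls outside DG-like and CA2/3-like nuclei numbered 4, and 10 without the filter, 0 after thinning, 0 at the finer clustering, 2 without the 5% of nuclei with most UMIs, 1 with no replicate block and 1 to 7 without 1 pair (1 without the vehicle pair and 1 without the IL-1R1+/+ pair, both Ccnd3 in astrocyte-like nuclei). Calls of relatives numbered 2, and 8 by DESeq2, 13 without the filter, 1 each after thinning, at the finer clustering and without the top 5% (each time Carmil3 in CA2/3-like nuclei, not Cdh18 or Cdh11 in astrocyte-like nuclei), 4 with high-mitochondrial nuclei kept, 0 with no replicate block and 0 to 6 without 1 pair. Members higher in every pair, summed over classes, numbered 31 and 16 after thinning. Both sums include the classes that chose the genes, with 8 in DG-like and 4 in CA2/3-like nuclei, and 5 and 4 after thinning. The share of all tested genes ran from 7.53% to 13.4% per class, and from 4.85% to 9.1% after thinning. The cause of these shifts was not tested. Thinning left fewer genes and UMIs, but the genes called by stress did not fall in every class. They rose from 5 to 117 in CA2/3-like and from 3 to 23 in CA1-like nuclei, and in no other class. Dpysl5 in other excitatory-like nuclei changed sign, to -0.21 after thinning, -0.0249 without the top 5% and -0.0324 without the IL-1R1+/+ pair (-0.0324 to 0.216 without 1 pair, edgeR adjusted p = 0.802 to 0.983). Of the 94 fits of a member under an alternative in DG-like nuclei, none changed sign, and in CA2/3-like nuclei 4 did, all of Pdzd2. These fits reuse the UMIs that chose the genes, so a stable sign there is a description and no test. No member was called for genotype or diet under any alternative run. OPC-like nuclei had no fit at the finer clustering.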
